A study of Mus musculus with 4 samples.

Results

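The CXC chemokines are small secreted proteins that guide leukocytes. The members described here were a list of 10 mouse CXC ligand genes: Cxcl1, Cxcl2, Cxcl3, Cxcl9, Cxcl10, Cxcl11, Cxcl12, Cxcl13, Cxcl14 and Cxcl16. They were found as the array probes whose RefSeq accession resolves to a listed gene, a step that used no measured values. The list itself was chosen with earlier results of these data known. Of the 10 genes, 9 had a probe named in this way, through 12 of the 56605 probes, and all 9 were among the 24055 genes tested. Cxcl11 was not analysed here.

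RNA was measured in cultures of primary Kupffer cells, the macrophages that live in the sinusoids of the liver. The cells came from male C57BL/6 mice aged 8 weeks, by collagenase IV perfusion and a Percoll step, and were plated with 10% serum. The cultures were then kept for 24 h with 0.1% serum and either ethanol, the vehicle (Veh), or 200 nM maresin 1 (MaR1), a macrophage product of docosahexaenoic acid, counted among the lipids that help inflammation resolve. Each group had 2 one-colour Agilent arrays, all 4 of them on 1 slide. Veh and MaR1 arrays lay at different positions of the slide, so position and treatment cannot be told apart. Whether the 2 arrays of a group stand for separate cultures or animals is not given in the labels. The p-values therefore measure no more than the spread between these arrays, and that spread may be technical.

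CXC chemokines carry a single residue between their leading cysteines. Ligands with a glutamate-leucine-arginine (ELR) motif ahead of those cysteines, such as Cxcl1, Cxcl2 and Cxcl3, call in neutrophils through Cxcr2, and their genes are classical targets of NF-kappaB. Cxcl9, Cxcl10 and Cxcl11 are induced by interferons and attract activated T cells and NK cells through Cxcr3, while the homeostatic ligands Cxcl12, Cxcl13 and Cxcl14 act in tissue upkeep and the placing of leukocytes. Cxcl16 is made as a transmembrane protein, binds Cxcr6 and is also a scavenger receptor for oxidised lipids.

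Of the 9 members tested, 6 were higher with MaR1, 1 was lower and 2 did not pass the test. Each level below is log2 of the processed signal minus the 75th percentile of the same array, and each difference is the MaR1 mean minus the Veh mean, ± the SE of the limma fit with n = 2 arrays per group. The test was limma's moderated test with Benjamini-Hochberg adjustment over all 24055 genes and a threshold of 0.05. By it, 2699 genes (11.2%) were higher with MaR1, 3069 (12.8%) were lower, and 5768 (24.0%) passed in either direction. The median difference of the members was 0.85, and that of all genes tested was -0.02. Veh and MaR1 values did not overlap for any of the 9 members, a common state that 16740 of all genes shared (69.6%).

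**Figure D1:**
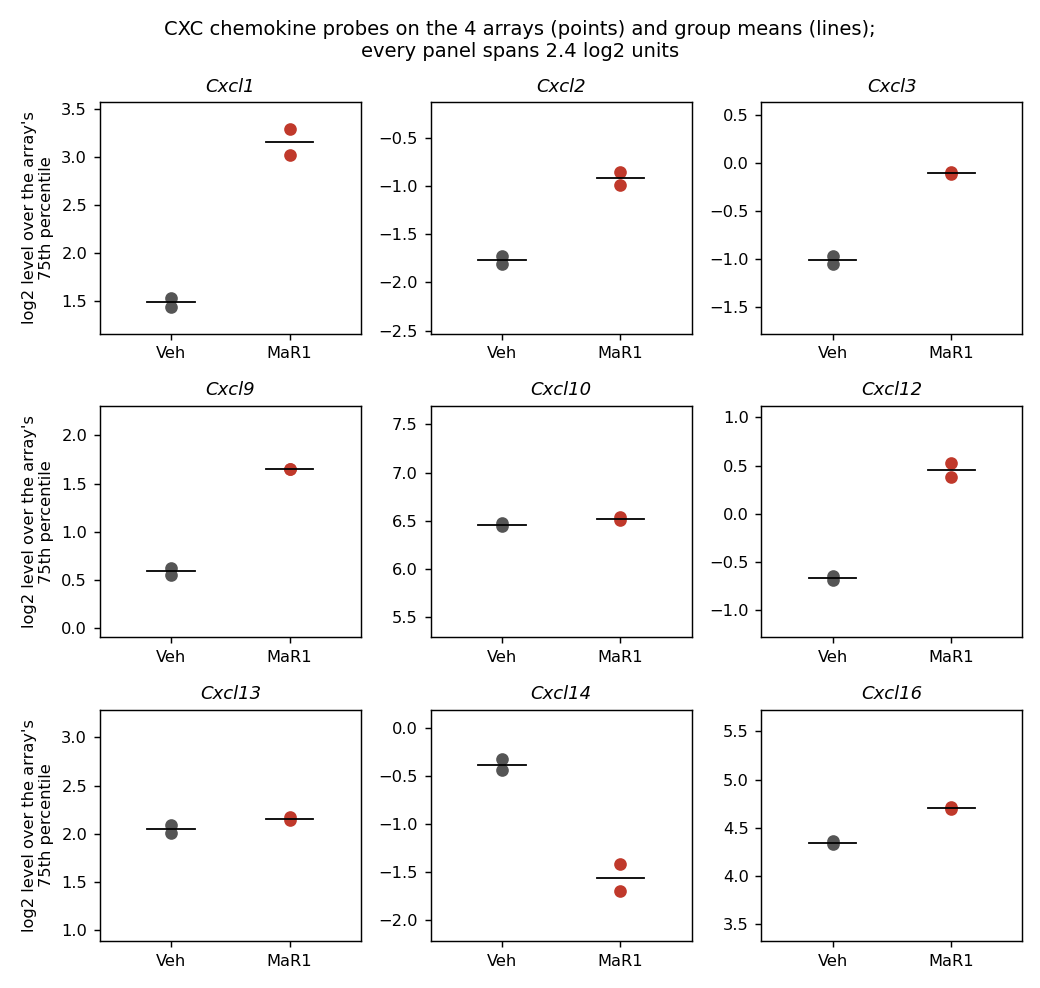
Level of each CXC chemokine probe (log2 over the array's 75th percentile) on the 2 Veh and the 2 MaR1 arrays; points are arrays, lines are group means, and every panel spans the same range. The MaR1 points of Cxcl1 lie 1.66 above the Veh points on average, those of Cxcl14 lie 1.17 below (-1.17), and those of Cxcl10 and Cxcl13 lie close to the Veh points.

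The ELR+ ligands are shown first because all 3 were higher with MaR1 and because the start of each gene carries the same short stretch. Cxcl1 lies on chromosome 5 from 90891245 to 90893121, Cxcl2 from 90903899 to 90905938 and Cxcl3 from 90786101 to 90788093 (RefSeq, GRCm38.p6), all on the plus strand. The 120 bases before each start site, at chr5:90891125-90891244 for Cxcl1, chr5:90903779-90903898 for Cxcl2 and chr5:90785981-90786100 for Cxcl3, are given 5′ to 3′ with GGGAATTTCCC, at 11 bases the longest stretch that these promoters share upstream of the start, in capitals.
Cxcl1: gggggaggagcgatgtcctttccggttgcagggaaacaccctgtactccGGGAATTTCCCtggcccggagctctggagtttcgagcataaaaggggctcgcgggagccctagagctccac
Cxcl2: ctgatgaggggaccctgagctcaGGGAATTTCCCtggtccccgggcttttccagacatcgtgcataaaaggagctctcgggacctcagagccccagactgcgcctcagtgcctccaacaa
Cxcl3: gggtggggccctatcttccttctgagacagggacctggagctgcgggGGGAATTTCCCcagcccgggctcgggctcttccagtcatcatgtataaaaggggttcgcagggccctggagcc
The stretch ends 61 bases before the start of Cxcl1, 87 before that of Cxcl2 and 63 before that of Cxcl3. It holds GGGAATTTCC, a form of the NF-kappaB consensus.

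Cxcl1, a neutrophil attractant, had levels of 1.54 and 1.44 on the Veh arrays and 3.02 and 3.29 on the MaR1 arrays. The raw processed signals were 2793 and 2687 with Veh against 7663 and 8261 with MaR1. Both MaR1 arrays were well above both Veh arrays, and the gap was much wider than the spread within either group. Cxcl1 was 3.16-fold higher, a log2 difference of 1.66 ± 0.11 (95% confidence interval 1.36 to 1.96, limma adjusted p = 0.00401), which placed it 177th in size among the 2699 higher genes.

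Cxcl2, known for its rapid induction in macrophages, was much dimmer, with signals of 290.4 and 280.7 on the Veh arrays and 524 and 425 on the MaR1 arrays. Its levels were -1.73 and -1.81 with Veh and -0.85 and -0.99 with MaR1. The MaR1 arrays were again the higher ones, 1.80-fold on average, with a log2 difference of 0.85 ± 0.08 (limma adjusted p = 0.00699). Cxcl3, a close paralogue, had levels of -1.05 and -0.97 with Veh and -0.09 and -0.12 with MaR1. Its 2 MaR1 arrays lay almost together and above both Veh arrays, with a 1.87-fold difference (0.91 ± 0.06 on the log2 scale, limma adjusted p = 0.00417). Among all genes tested, 766 (3.18%) were higher by at least the difference of Cxcl2, the smallest of these ligands.

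The difference of Cxcl1 exceeded that of Cxcl2 by 0.81 and that of Cxcl3 by 0.76 on the log2 scale. Those of Cxcl2 and Cxcl3 lay 0.06 apart (-0.06, Cxcl2 minus Cxcl3). With 2 arrays against 2, an exact permutation test of the array labels cannot give a p below 0.333. It can therefore decide none of the 7 pairs of members within a role, and the gaps between members are given as values only.

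The 3 genes with the pattern nearest to Cxcl1 over the 4 arrays, after each gene's own mean was removed, were Nwd2, Ptgir and Clic5. Nwd2 lay at a Euclidean distance of 0.0621 log2 units and differed by 1.68 ± 0.12. Ptgir, which encodes the prostacyclin receptor, lay at 0.103 (1.68 ± 0.15), and Clic5, an intracellular chloride channel gene, also at 0.103 (1.70 ± 0.08).

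Of the interferon-induced ligands, Cxcl9 was higher with MaR1 and Cxcl10 did not pass the test. Cxcl9, a ligand that interferon gamma induces in macrophages, had levels of 0.63 and 0.56 on the Veh arrays and 1.65 on both MaR1 arrays. Its Veh and MaR1 values stood clearly apart, and Cxcl9 was 2.08-fold higher with MaR1 (1.06 ± 0.06 on the log2 scale, confidence interval 0.90 to 1.22, limma adjusted p = 0.00301). Cxcl10, which type I and type II interferons both induce, had levels of 6.44 and 6.48 with Veh and 6.51 and 6.54 with MaR1. All 4 arrays were bright for Cxcl10, with raw signals of 83678 and 87890 against 86082 and 78662, and none was saturated. The difference was 0.06 ± 0.06 with a confidence interval from -0.09 to 0.21 (limma adjusted p = 0.443). Its sign turned under other scalings of the arrays (-0.083 with quantile normalization), so no direction is given for Cxcl10. The Cxcl9 difference exceeded that of Cxcl10 by 1.00 on the log2 scale, a gap that was not tested.

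Cxcl9 and Cxcl10 are neighbours on chromosome 5, at 92321331 to 92328079 and 92346638 to 92348889 on the minus strand. The 250 bases before each start, at chr5:92328080-92328329 for Cxcl9 and chr5:92348890-92349139 for Cxcl10, are shown because Cxcl9 passed the test and Cxcl10 did not, and because the motifs found in them differ. Capitals mark, in Cxcl10 only, a match to the interferon-stimulated response element (TTTC and TTTC with 2 bases between them, read here on the opposite strand) and then matches to the NF-kappaB consensus.
Cxcl9: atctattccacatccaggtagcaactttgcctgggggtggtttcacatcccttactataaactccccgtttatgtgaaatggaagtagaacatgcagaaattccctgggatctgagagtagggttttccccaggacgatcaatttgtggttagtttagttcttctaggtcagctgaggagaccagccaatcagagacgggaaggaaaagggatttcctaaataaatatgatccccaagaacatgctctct
Cxcl10: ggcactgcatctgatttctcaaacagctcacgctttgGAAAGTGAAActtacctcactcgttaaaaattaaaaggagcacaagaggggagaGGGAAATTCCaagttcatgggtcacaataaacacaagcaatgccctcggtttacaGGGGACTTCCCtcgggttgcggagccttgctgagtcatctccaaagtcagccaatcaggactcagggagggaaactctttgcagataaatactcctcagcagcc
In Cxcl10 the interferon element spans 213 to 204 bases before the start. One NF-kappaB match spans 159 to 150 bases before it, and overlapping matches cover 104 to 94. Cxcl9 held no exact match to either motif in this window, nor to the gamma-activated site TTCNNNGAA. Near matches were not counted.

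Both strands of the 250 bases before each start were searched for exact matches to each motif, and a promoter was at hand for 8 of the members. Across all 32851 promoters, 0.0426% (14) held GGGAATTTCCC, 7.25% the NF-kappaB consensus, which overlaps it, 2.98% the interferon-stimulated response element and 7.02% TTCNNNGAA. GGGAATTTCCC was in 4 of 1425 promoters of higher genes (0.281%), 2 of 1359 of lower genes (0.147%) and 2 of 8744 of genes that were not called (0.0229%). The 4 include Cxcl1, Cxcl2 and Cxcl3, from which the letters came, beside Lyzl4, a lysozyme-like gene with a log2 difference of 1.44. The lower genes were Il16, the gene of a T cell attractant (-0.67), and Hpn, a serine protease gene (-0.51, with the call kept in 1 of 4 fits that left out an array). The NF-kappaB consensus was in 12.1% of promoters of higher genes, 10.4% of lower genes and 9.97% of genes that were not called. Cxcl14 held the interferon-stimulated response element at 172 to 163 and TTCNNNGAA at 191 to 183 bases before its start, and Cxcl12 and Cxcl13 held none of these motifs. The arrays measured no binding at any of these stretches.

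The homeostatic ligands went in different directions. Cxcl12, the ligand of Cxcr4 that holds leukocytes in tissue, had levels of -0.69 and -0.64 with Veh and 0.38 and 0.53 with MaR1. Both MaR1 arrays were higher, 2.17-fold on average (1.12 ± 0.07 on the log2 scale, limma adjusted p = 0.00398). A second, dimmer Cxcl12 probe, for another RefSeq transcript, had levels of -3.42 and -3.18 with Veh and -2.97 and -3.16 with MaR1. There the difference was 0.23 ± 0.12 (limma adjusted p = 0.223 in the fit of every probe), and the mean of both probes gave 0.68 (adjusted p = 0.0102).

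Cxcl13, which attracts B cells through Cxcr5, had levels of 2.00 and 2.10 with Veh and 2.14 and 2.17 with MaR1. The MaR1 values were the higher ones but lay within 0.17 of the Veh values. The difference of 0.11 ± 0.06 (confidence interval -0.06 to 0.28, limma adjusted p = 0.270) did not pass the test.

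Cxcl14, a ligand of epithelia and resting tissue, was the only member tested that was lower with MaR1. Its levels were -0.33 and -0.44 on the Veh arrays and -1.42 and -1.70 on the MaR1 arrays, with raw signals of 764 and 727 against 354 and 261. Both MaR1 arrays were below both Veh arrays, though the MaR1 arrays also differed from each other. Cxcl14 fell 2.25-fold (-1.17 ± 0.12 on the log2 scale, limma adjusted p = 0.00787), 167th in size among the 3069 lower genes. With no filter on dim probes the call was lost (adjusted p = 0.0513). On no array did another Cxcl14 probe stand well above background.

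The differences of Cxcl12 and Cxcl14 lay 2.29 apart on the log2 scale, the widest gap among the 7 pairs. Those of Cxcl12 and Cxcl13 lay 1.01 apart, and those of Cxcl13 and Cxcl14 lay 1.28 apart.

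Cxcl16 had levels of 4.33 and 4.36 with Veh and 4.70 and 4.72 with MaR1. The groups were apart, but the step was small, 1.29-fold (0.36 ± 0.06 on the log2 scale, limma adjusted p = 0.0191). The call was lost when any 1 array was left out (adjusted p 0.0659 to 0.0981) and with the replicate number as a block (0.0510). The second Cxcl16 probe had levels of 3.08 and 3.22 with Veh and 3.18 and 3.22 with MaR1 and did not pass (0.05 ± 0.07, adjusted p = 0.640 in the fit of every probe).

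**Figure D2:**
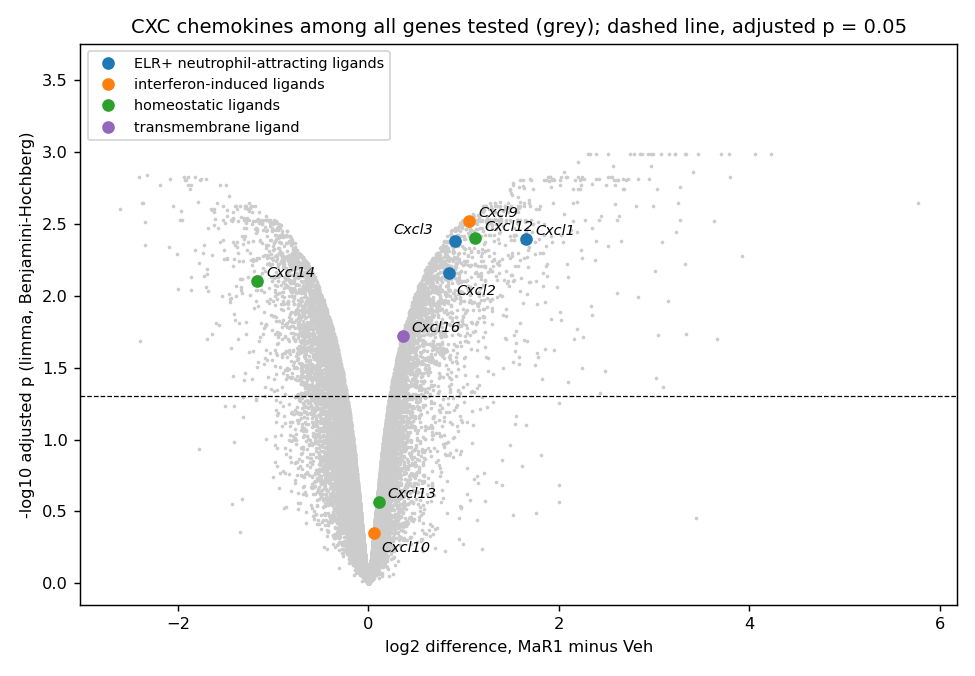
Log2 difference, MaR1 minus Veh, against -log10 of the limma adjusted p for all 24055 genes tested (grey) and the 9 CXC chemokines (coloured by role); the dashed line is the threshold of 0.05. Cxcl1 stands farthest right of the members at 1.66, Cxcl14 is the only one at the left, and Cxcl10 and Cxcl13 lie below the line.

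Genes that act with these ligands were counted from lists of known roles. Of 5 other CXC ligand genes, Cxcl5, Pf4 and Ppbp were tested and none passed (-0.17 to 0.15), and Cxcl15 and Cxcl17 were not tested. Of 10 receptors and decoys, 7 were tested, 2 were higher, 2 were lower and 3 did not pass, with a median of 0.02. Cxcr1 and Cxcr2, the receptors of the ELR+ ligands, were among the 3 whose probes were too dim to be tested.

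Cxcr3, the receptor of Cxcl9 and Cxcl10, had levels of 0.80 and 0.82 on the Veh arrays and 0.11 and -0.05 on the MaR1 arrays. Both MaR1 arrays were below the Veh arrays, so that Cxcr3 fell (-0.78 ± 0.08, limma adjusted p = 0.00821) where its ligand Cxcl9 rose. Cxcr4, the receptor of Cxcl12, was lower by a small step (-0.32 ± 0.07, adjusted p = 0.0437), which was lost when any 1 array was left out and was not seen on a second probe (-0.09 ± 0.07). Cxcr6, the receptor of Cxcl16, missed the threshold on its brightest probe (0.23 ± 0.06, adjusted p = 0.0666), while a second probe passed it narrowly (0.25 ± 0.06, limma adjusted p = 0.0469 in the fit of every probe). The decoy Ackr2, which takes up mainly CC chemokines, had levels of 2.15 and 2.10 with Veh and 3.97 and 4.10 with MaR1. It differed more than any CXC ligand tested (1.92 ± 0.07, limma adjusted p = 0.00175), and the broad chemokine-binding decoy Ackr1 also rose (0.75 ± 0.06).

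Of 9 proteases that trim or shed CXC ligands, none rose, 2 fell and 7 did not pass, with a median of -0.23. Mmp8, the collagenase of neutrophils that trims ELR+ ligands, fell by 1.53 on the log2 scale (-1.53 ± 0.08, limma adjusted p = 0.00298). Adam17, a sheddase, also fell (-0.35 ± 0.05, adjusted p = 0.0194), with the call lost when any 1 array was left out. A second, dimmer Adam17 probe was lower as well (-0.62 ± 0.06, limma adjusted p = 0.00795 in the fit of every probe). Mmp9, gelatinase B, did not pass (-0.48 ± 0.13, adjusted p = 0.0601), although a second probe did (-0.52 ± 0.10, limma adjusted p = 0.0318 in the fit of every probe).

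Of 14 NF-kappaB genes and upstream cytokines, 2 rose, 3 fell and 9 did not pass, with a median of 0.08. Rel, the c-Rel subunit, rose (0.80 ± 0.08), and so did Nfkb1, the gene of p50 (0.44 ± 0.06, lost when any 1 array was left out). The cytokine genes Il1b and Tnf, classical NF-kappaB targets like the ELR+ ligands, were lower: Il1b by -0.56 ± 0.05 and Tnf by -0.43 ± 0.06, the latter lost in 3 of 4 fits that left out an array. Nfkbiz, an atypical IkappaB gene, was lower as well (-0.37 ± 0.07, lost in all 4).

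Of 7 factors that act on the decay of chemokine transcripts, 2 rose, 1 fell and 4 did not pass. Zfp36, the gene of tristetraprolin, which promotes decay of AU-rich transcripts, rose (0.62 ± 0.05, limma adjusted p = 0.00632). Its paralogue Zfp36l1 rose on its brightest probe (0.46 ± 0.06), but a second probe gave -0.01 ± 0.08. Zfp36l2 was lower (-0.31 ± 0.06, lost when any 1 array was left out).

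Of 16 genes of interferon signalling, 7 rose, 1 fell and 8 did not pass, with a median of 0.16. Ifng, the gene of interferon gamma, had levels of -0.09 and -0.02 on the Veh arrays and 1.39 and 1.49 on the MaR1 arrays. The MaR1 arrays were both higher, by 1.50 ± 0.07 on the log2 scale (limma adjusted p = 0.00236). Ifnb1 (1.26 ± 0.07), the feedback inhibitor Socs1 (1.33 ± 0.11) and the kinase gene Jak2 (0.68 ± 0.05) rose too. Irf8, Ifngr2 and Irf1 rose by 0.58, 0.45 and 0.40, each with the call kept in 1 of 4 fits that left out an array. A second, dimmer Irf1 probe was higher as well (0.61 ± 0.06, limma adjusted p = 0.00732 in the fit of every probe). Ifngr1 was the gene that fell (-0.30 ± 0.06, limma adjusted p = 0.0313). Its call was lost with no filter on dim probes and with the replicate number as a block. The 8 genes that did not pass ran from -0.18 to 0.21. Among them, Ifnar1 and Irf7 each had a dimmer probe that did pass (0.37 ± 0.06 and 0.26 ± 0.06).

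**Figure D3:**
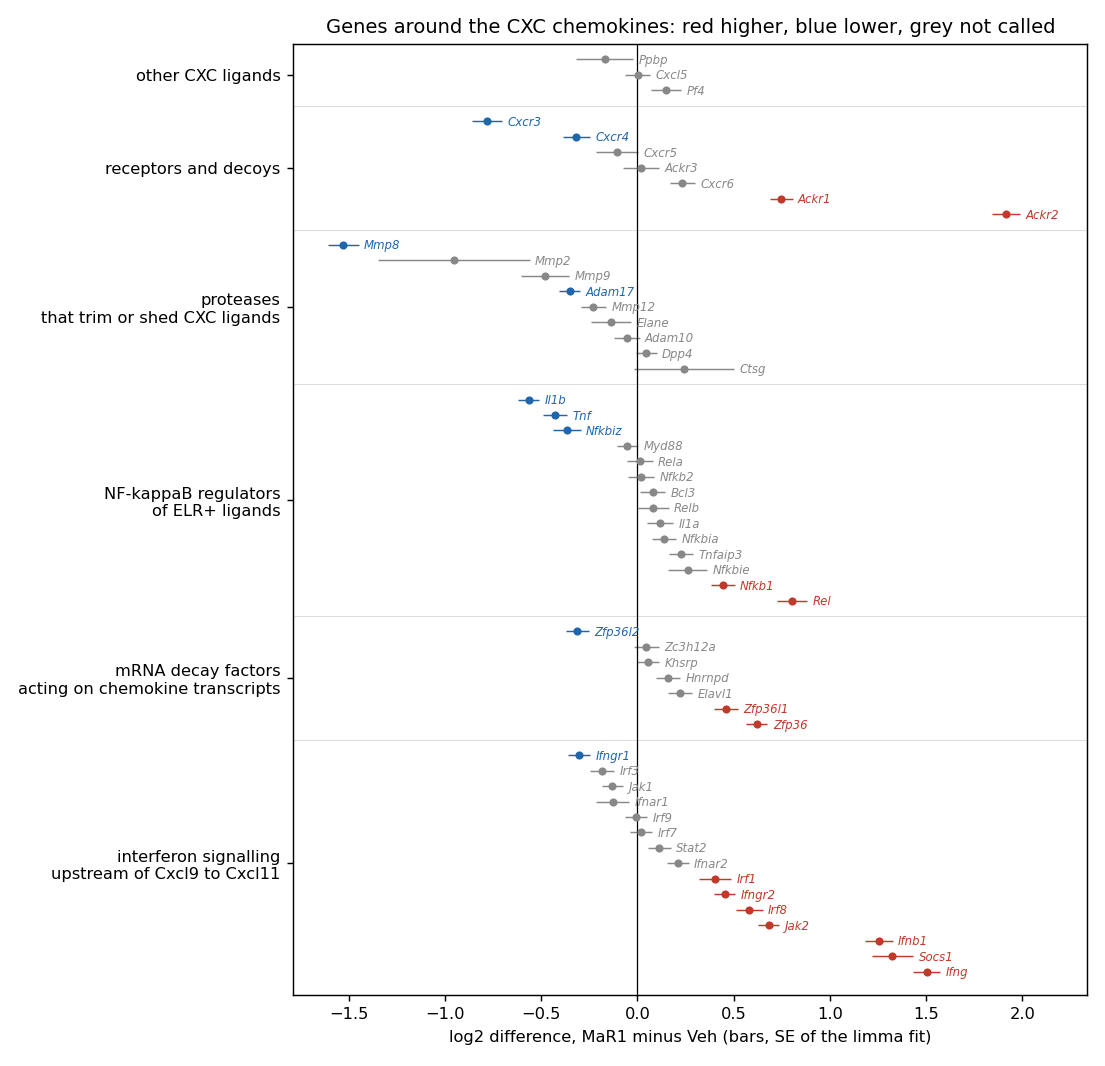
Log2 difference, MaR1 minus Veh, of tested genes in the 6 lists of genes around the CXC chemokines; bars are the SE of the limma fit, red is higher, blue lower and grey not called. Ackr2 lies farthest to the right at 1.92 and Mmp8 farthest to the left at -1.53, and the interferon list holds 7 red points.

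Markers of other liver cell types were measured as well. In bulk RNA fewer cells of a type and less RNA per cell cannot be told apart. Kupffer cell markers were bright on all arrays: Clec4f, a lectin of Kupffer cells, had mean levels of 6.39 with Veh and 6.43 with MaR1. Of 10 such markers, 1 was higher (Csf1r, 0.29), 1 lower (Adgre1, -0.67) and 8 did not pass. Marco, the brightest of the list, was among those that did not pass (-0.19 ± 0.06, limma adjusted p = 0.0905). The Csf1r call was lost under 10 of 14 alternatives, when any 1 array was left out and with quantile normalization among them, while that of Adgre1 was kept under all 14. Their summed linear level, in units of the array's 75th percentile, was 1154 to 1198 with Veh and 1110 to 1130 with MaR1.

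Beside the ELR+ ligands, 7 of 8 neutrophil markers in the fit did not pass (-0.13 to 0.26). Of these, Camp, Ltf, Mpo and Retnlg were dim, with mean Veh levels from -4.56 (Ltf) to -3.74 (Mpo), which limits what their results can show. The eighth, Stfa2, a stefin gene, was well above background on the MaR1 arrays alone and entered the fit through them, so its call is not counted as a test. With Veh values raised to at least the dimmest well-above-background signal of the array, Stfa2 was 0.80 higher on the log2 scale. Its call was lost under 6 of 12 alternatives, over which the difference ran from 0.35 to 1.42. The summed level of the neutrophil markers was 45.1 to 46.7 with Veh and 40.4 to 44.2 with MaR1, most of it from Csf3r. The granule gene Ngp was not well above background in either group. Beside Cxcl9 and Cxcr3, of 9 T and NK cell markers 2 were higher (Gzma, 1.37; Cd8a, 1.27), 4 were lower (Lck, Nkg7, Ncr1 and Cd3g, -0.51 to -0.33) and 3 did not pass. The calls of Gzma and Cd8a were kept when any 1 array was left out, those of Nkg7, Ncr1 and Cd3g were lost each time, and that of Lck was lost in 3 of 4 such fits. A second Lck probe did not pass (-0.24 ± 0.12), whereas among the markers that did not pass Klrb1c had 2 dimmer probes that were lower (-0.58 and -0.28) and Cd3d had 1 (-0.31). The summed level of the T and NK cell markers rose from 35.6 to 37.0 with Veh to 59.1 to 65.9 with MaR1. This rise came from Gzma, with mean levels of 4.23 with Veh and 5.60 with MaR1. Cd8a was dim (-3.69 and -2.43), and on their brightest probes all the other tested markers of the list had negative differences (-0.51 to -0.14). Of 9 dendritic cell markers, 6 were higher, with Itgax at 2.39 and Batf3 at 1.89, and none was called lower. The 3 that did not pass had negative differences: Siglech, the brightest of the list (-0.28), Flt3 (-0.28) and Itgae (-0.14). A dimmer Siglech probe gave 0.15 ± 0.17. The summed level of the dendritic cell markers went from 47.2 to 50.6 with Veh up to 73.9 to 74.5 with MaR1. Most of this rise came from Batf3, with mean levels of 2.73 with Veh and 4.62 with MaR1.

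Beside Cxcl12 and Cxcl14, which stromal and endothelial cells also make, of 8 stellate cell markers none was higher and 2 were lower (Reln, -0.44, and Dcn, -0.37), with summed levels of 4.22 to 4.31 with Veh and 3.30 to 3.35 with MaR1. Both calls were lost when any 1 array was left out. Dcn made up most of these sums, with mean levels of 1.87 with Veh and 1.50 with MaR1. Of 9 sinusoidal endothelial markers 4 were higher, with Pecam1 at 1.15 and Stab2 at 0.47, and 2 were lower (Bmp2, -0.78, and Gpr182, -0.69). The 3 that did not pass had negative differences: Clec4g (-0.18), Lyve1 (-0.16) and Tek (-0.02). The median of the list was -0.02. The calls of Stab2 and Gpr182 were kept in 1 of 4 fits that left out an array and lost with no filter on dim probes. The sum of the endothelial markers was 80.7 to 85.0 with Veh and 97.0 to 98.1 with MaR1. Hepatocyte markers had 2 of 9 lower (Hnf4a, -1.17; Ttr, -0.41, with the call lost when any 1 array was left out) and none higher, with sums of 22.5 to 24.0 and 19.4 to 20.3. Beside Cxcl13, B cell markers had 3 of 8 higher, among them Ms4a1 (1.21) and Cd79b (0.74), and none lower, though Cr2 (-0.72 ± 0.18, limma adjusted p = 0.0523) and Pax5 (-0.42 ± 0.16, adjusted p = 0.137) lay lower on both MaR1 arrays without passing, with sums of 7.35 to 7.57 and 9.43 to 9.87. Alb, the brightest hepatocyte marker (-0.23 ± 0.09), and Cd22, the brightest B cell marker (0.15 ± 0.06), did not pass. The part of the listed cell types in the differences of the chemokines was not tested.

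**Figure D4:**
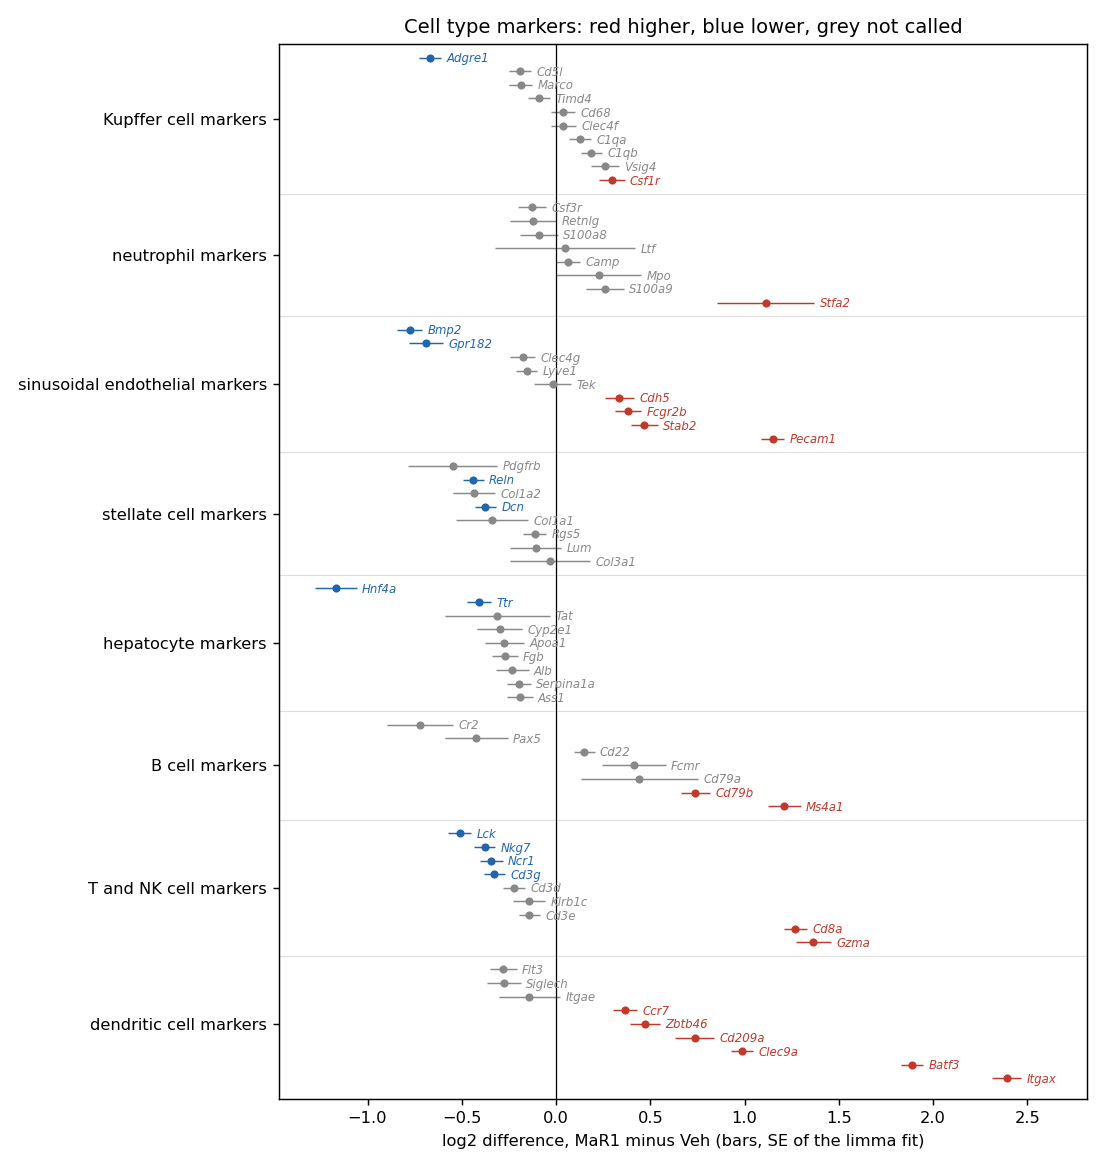
Log2 difference, MaR1 minus Veh, of tested markers of 8 cell types; bars are the SE of the limma fit, red is higher, blue lower and grey not called. Most Kupffer cell and neutrophil markers lie near 0, while dendritic cell markers run from -0.28 (Flt3) to 2.39 (Itgax).

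Cxcl1, Cxcl2, Cxcl3, Cxcl9 and Cxcl12 were called higher under each of the 14 alternatives tried. In the fit of every probe the brightest probe was the one scored, and the second Cxcl12 probe did not pass there. Cxcl1, Cxcl2, Cxcl3 and Cxcl9 had 1 probe each. For them the settings of filter, probe choice, variance model and replicate block left the difference unchanged and could move only its SE and p. Leaving out each array in turn gave 1.53 to 1.80 for Cxcl1, 0.78 to 0.92 for Cxcl2, 0.86 to 0.95 for Cxcl3, 1.02 to 1.09 for Cxcl9 and 1.05 to 1.19 for Cxcl12. Cxcl14 gave -1.31 to -1.03 in the same fits and stayed called in each.

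**Figure D5:**
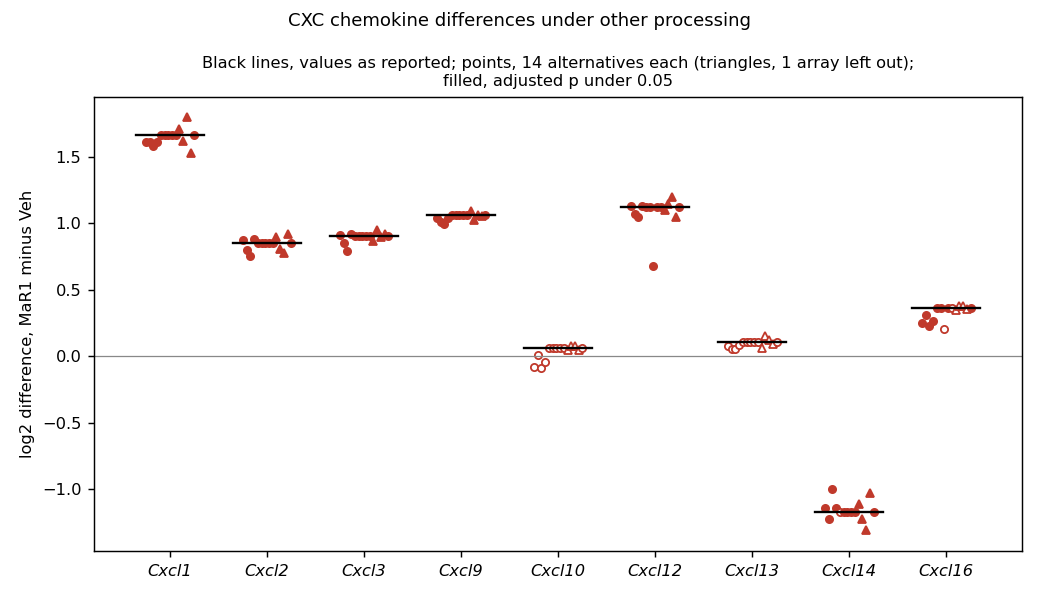
Log2 difference of each CXC chemokine as reported (black line) and under 14 alternatives (points; triangles leave out 1 array; filled points have an adjusted p under 0.05). Points of Cxcl1, Cxcl2, Cxcl3, Cxcl9 and Cxcl12 are all filled, those of Cxcl10 lie on both sides of 0, and Cxcl16 has open points. For the fit of every probe, the brightest probe of each gene is drawn.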

How the data were processed

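The deposited scanner files hold linear intensity values, made by the authors with Agilent Feature Extraction 11.0.1.1 per the file headers, with background subtracted and no scaling between arrays. The deposited value table holds log2 values whose normalization is not stated in the sources used here. It was used only as an alternative.

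Control spots and outlier spots were left out. Processed signals were divided by the 75th percentile of their array (961, 988, 946 and 847) and put on the log2 scale. Of 56605 probes, 31128 that both arrays of a group measured well above background were kept. RefSeq accessions were matched to RefSeq genes of GRCm38.p6, so that 33001 probes (58.3%) had a single symbol, and the brightest kept probe stood for a gene. On each array 54.4% to 55.6% of probes were well above background, and 0 spots were saturated. The number of arrays limits the precision.

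The test was the moderated test of limma 3.58.1, by lmFit and eBayes (R 4.3.3, two-sided, Benjamini-Hochberg over 24055 genes). The fit was tested on simulated data. The data.table package 1.17.8 read the files, and matplotlib 3.10.9 drew the plots. The members and lists were chosen with earlier results of these data known. Named were all members with every probe, pathway genes that were well above background, led by called genes with a difference of at least 0.5, the brightest marker of each list and the 3 genes nearest to Cxcl1. Other marker genes, holders of the shared promoter stretch and Clec4f were named after their values were seen. Single values of 2 listed genes are not reported here. Promoters came from RefSeq (GRCm38.p6), with none used for Cxcl11 and Cxcl16. Alternatives covered scaling, background correction, filter, probe choice, variance model, replicate block and leaving out each array.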

Additional observations from a re-analysis of the deposited data

How the results depend on the processing

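Genes called numbered 5768, against 2059 with no filter on dim probes, 9429 with a variance trend and robust hyperparameters, and 1967 to 2827 with 1 array left out, where the lone array is assumed to vary like the others. Members called higher numbered 6, and 5 with 1 array left out or with the mean of a gene's probes; members called lower numbered 1, and 0 with no filter (limma adjusted p = 0.0513 for Cxcl14). Cxcl10 turned to -0.083 with quantile normalization, -0.087 with normexp added to it, and -0.044 in the authors' deposited value table. Scaling on probes detected on all arrays gave 2231 higher and 4060 lower genes, against 2699 and 3069. With the replicate number as a block, 3692 genes, 5 members higher and 1 lower were called. Same-numbered arrays did not deviate together (r = -0.03 across genes). With so few arrays per group, this value cannot decide whether the numbers mark shared animals or cultures, which the labels do not state. The causes were not tested.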
